A study of Mus musculus with 15 samples.

Results

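The 9 genes described here encode the pore-forming subunits of 2 families of glutamate receptor: the AMPA receptor subunits Gria1, Gria2, Gria3 and Gria4 and the kainate receptor subunits Grik1, Grik2, Grik3, Grik4 and Grik5. They were taken by name, as the members of both families, from a gene count table of 21889 genes, and the list was chosen with earlier results of these data known. All 9 passed the filter on low counts that left 15259 genes for testing. Poly(A) RNA was sequenced from mouse cerebellar cells purified on Percoll, with 3 libraries in each of 5 groups. Granule neuron precursors, the cells of the external granular layer that divide after birth and become granule neurons, came from mice of genotype Math1-GFP at embryonic day E15.5 and from mice labelled WT at the postnatal ages of P1, P7 and P14. Medulloblastoma cells (MB) came from cerebellar tumours of mice labelled Ptch1 heterozygous, with no age or second allele given. Age and genotype therefore cannot be told apart in any comparison with E15.5, nor can tumour, genotype and unknown age in any comparison with MB. The labels do not say whether the E15.5 cells were also sorted by GFP, which would be a further difference in comparisons with E15.5. They also do not say whether the 3 libraries of a group came from separate animals, litters or tumours, so p-values measure only the spread between these libraries.

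AMPA and kainate receptors are tetramers of related subunits, opened by glutamate, that carry fast excitatory current. Each AMPA receptor is built from Gria1 to Gria4 products, and the presence of the Gria2 product sets whether calcium passes. Kainate receptors combine the Grik1 to Grik3 products, which form channels on their own, with those of Grik4 and Grik5, which raise the affinity for the ligand and need a partner of the first kind. In the mature cerebellum, granule neurons receive mossy fibre input through AMPA receptors built largely from Gria2 and Gria4 products, and Bergmann glia carry AMPA receptors with the Gria1 and Gria4 products.

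The control of calcium entry by Gria2 lies in 1 codon of the pore loop, the Q/R site, whose middle adenosine can be deaminated in the RNA of Gria2, Grik1 and Grik2 by the enzyme encoded by Adarb1, so that a glutamine codon is read as arginine. The 30 bases around that codon are shown for the subunits known to be edited, with Gria1 and Gria4 for comparison, because both Gria2 and Adarb1 are described below. The sequences are coding sequence of GENCODE M21 transcripts (GRCm38), written 5′ to 3′ on the gene's strand, and the capitals mark the Q/R codon.
Gria2: ttgggtgcctttatgCAGcaaggatgcgat
Gria1: ctgggggccttcatgCAGcaaggatgtgac
Gria4: ctgggtgcctttatgCAAcaaggatgtgac
Grik1: gttggagctctcatgCAGcaaggatcggag
Grik2: gttggagctctcatgCAGcaaggttctgag
In the genome the Gria2 window lay in exon 11 at chr3:80706899-80706928, on the minus strand. The Gria1 window lay in exon 11 at chr11:57243079-57243108, on the plus strand. The Gria4 window lay in exon 12 at chr9:4464125-4464154, on the minus strand. The windows of Grik1 (chr16:87936108-87940559, minus strand) and Grik2 (chr10:49240789-49244346, minus strand) each crossed the junction of exons 12 and 13. Of the 9 subunits, Gria4 had CAA at this codon and the others had CAG. Gria2 shared 25 of the 30 bases with Gria1, 26 with Gria4, 21 with Grik1 and 20 with Grik2, while Grik1 and Grik2 shared 28. Read counts per gene do not show which base the RNA carried, so editing itself was not measured.

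The 15 libraries held 12597472 to 43443132 counts in genes, and the lowest count of any subunit in any library was 35, for Grik1 in MB. Levels are given as CPM, each library's counts scaled to a common total after TMM adjustment. Atoh1, also called Math1, a transcription factor that marks the precursors, was at 124 to 138 CPM at E15.5, 10.9 to 13.1 CPM at P14 and 236 to 322 CPM in MB. Atoh1 belongs to a list of 9 precursor markers, whose summed level did not fall with it from E15.5 to P14. That sum was 2503 to 3538 CPM at E15.5, 3565 to 3951 CPM at P14 and 3839 to 6372 CPM in MB. Ptch1, the gene of the tumour genotype, was at 202 to 349 CPM in MB and 252 to 340.1 CPM at P7, and a count per gene does not check a heterozygous allele. Marker lists of other cell types differed between the groups. The summed level of 10 astroglia and Bergmann glia markers was 128 to 374 CPM at E15.5, 2551 to 3998 CPM at P1, 1988 to 4372 CPM at P7, 3721 to 4682 CPM at P14 and 1053 to 1556 CPM in MB. That of 10 oligodendrocyte lineage markers was 72.5 to 106 CPM at E15.5, 5921 to 6335 CPM at P14 and 688 to 976 CPM in MB. Single libraries made the ends of some of these ranges. E15.5 replicate 3 had 374 CPM of the astroglia markers against 165 and 128 in the other E15.5 libraries. MB replicate 1 had 3839 CPM of the precursor markers against 6372 and 6307 in the other MB libraries. P1 replicate 3 stood apart from the other P1 libraries. It had 3855 CPM of oligodendrocyte lineage markers against 612 and 995, and 3167 CPM of 8 granule neuron markers against 1276 and 1238. Of those granule neuron markers, Gabra6, a GABA receptor subunit of mature granule neurons, was at 0 in all 3 E15.5 libraries. In these bulk samples, fewer cells of a type and less RNA per cell cannot be told apart.

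Between E15.5 and the postnatal ages the AMPA subunits Gria1, Gria2 and Gria4 rose, and the kainate subunits Grik1 and Grik3 fell. In P1 against E15.5, edgeR's quasi-likelihood test with Benjamini-Hochberg adjustment over all genes tested called 5 of the 9 subunits at an adjusted p under 0.05, where 46.3% of all genes tested were called. Of these 5, 3 were higher and 2 lower, in directions that held 25.4% and 20.9% of all genes. In P14 against E15.5 it called 6, of which 4 were higher and 2 lower, against 50.9% of all genes (26.7% higher and 24.2% lower). The count of subunits called was thus near the background in both. The median log2 change of the 4 AMPA subunits in P14 against E15.5 was 1.50 and that of the 5 kainate subunits was -0.46, beside -0.03 over all genes tested. In P7 against E15.5, 7 were called against 37.8% of all genes: all 4 AMPA subunits and Grik2 were higher, beside 21.6% of all genes, and Grik1 and Grik3 lower, beside 16.2%. Over the 4 ages together, 7 of 9 differed, where 55.7% of all genes did; Grik4 and Grik5 did not pass.

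Between the postnatal ages few of the subunits passed these tests. None of the 9 passed in P7 against P1, where 3.15% of all genes did; 0 had an unadjusted p under 0.05, and DESeq2 called 0 as well. Grik1 alone fell in P14 against P7, where 10.3% of all genes were called and 4.51% were called lower, and Grik3 alone fell in P14 against P1, where 8.94% were called, 3.63% higher and 5.31% lower. Without P1 replicate 3, P14 against P1 called 4 subunits: Gria1 and Gria4 were higher by log2 changes of 0.87 and 1.09, and Grik1 and Grik3 were lower. Leaving out any other library of that comparison left 0 calls. The 9 subunits are plotted by library in the panels of AMPA and kainate levels.

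**Figure D1:**
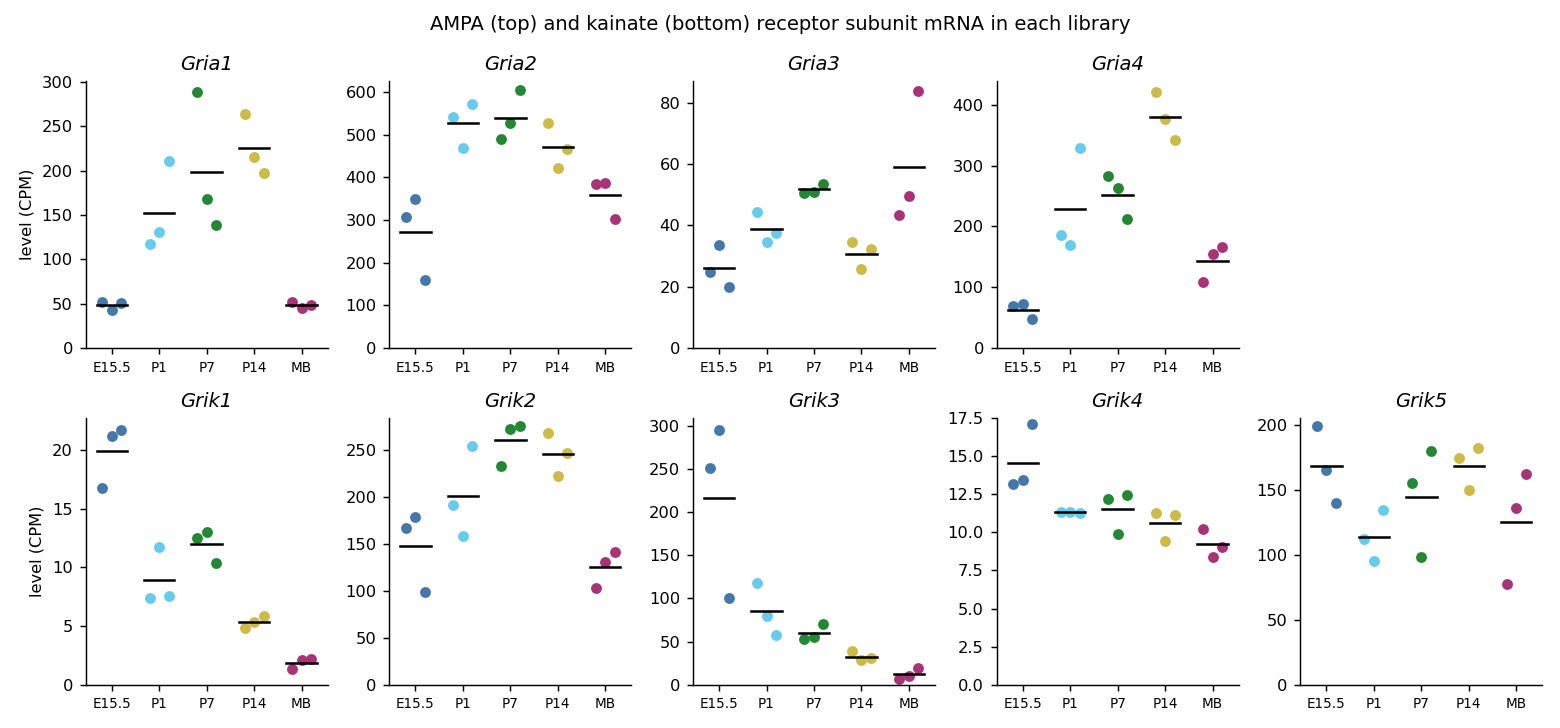
Level of each subunit in CPM (linear axes from 0, scaled separately for each gene) in the 15 libraries, by group; each circle is 1 library and the black line is the mean of 3. Gria1 and Gria4 are low at E15.5 and in MB, whereas Grik1 and Grik3 have their highest mean at E15.5 and their lowest in MB.

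In medulloblastoma most of the subunits were lower than in postnatal precursors, and Gria3 was not. MB against P7 called 5 of the 9, all lower (Gria1, Gria4, Grik1, Grik2 and Grik3), where 34.5% of all genes were called and 20.7% were called lower. The same 5 genes were lower in MB against P1, where 38.7% of all genes were called and 22.6% were called lower. MB against P14 called 6, with those 5 lower and Gria3 higher, where 50.0% of all genes were called, 22.9% higher and 27.2% lower. The median log2 change of the 9 subunits was -0.82 against P7 and -0.97 against P14, beside 0.02 and 0.01 over all genes tested. Against E15.5, by contrast, MB had higher Gria3 and Gria4 and lower Grik1, Grik3 and Grik4, 5 calls where 50.1% of all genes were called, 26.0% higher and 24.2% lower. The comparisons of MB share the MB libraries, so their calls are not independent. Beside these falls, the summed level of 10 Purkinje cell markers was 110.3 to 216 CPM in MB against 353 to 544 CPM at P14 and 421 to 1091 CPM at P7. Of that list, only Foxp2 had a higher mean in MB (82.5 CPM) than at P14 (9.13 CPM) and P7 (17.7 CPM). The sum of the granule neuron markers was 989.8 to 1533 CPM in MB against 3932 to 4683 CPM at P14. The part of cell makeup in the differences of the subunits was not tested.

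**Figure D2:**
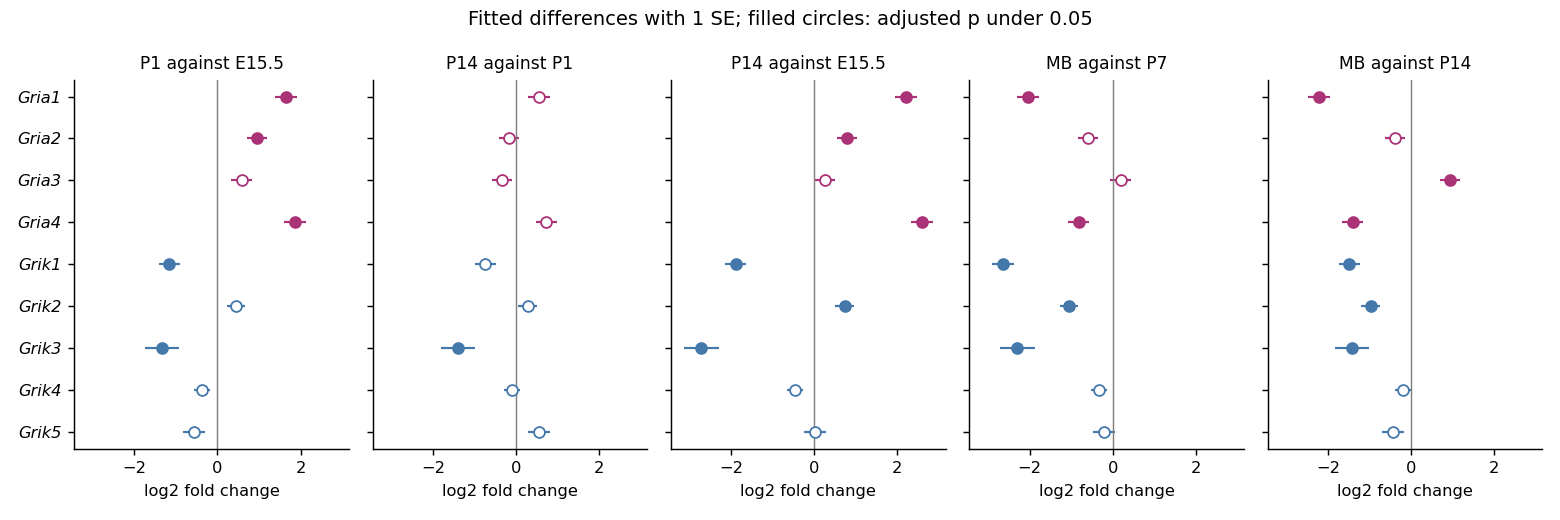
Fitted log2 fold change (horizontal axis) of each subunit in 5 comparisons, with 1 standard error; filled circles passed the test at an adjusted p under 0.05 and open circles did not. AMPA subunits are in purple and kainate subunits in blue; Gria1 and Gria4 lie at 1.65 and 1.86 in P1 against E15.5 and at -2.23 and -1.41 in MB against P14.

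Gria1 (ENSMUSG00000020524, chr11:56825312-57143746 in mm9, plus strand) encodes an AMPA subunit that in the cerebellum is known from Bergmann glia. Its level was 52.3, 43.0 and 50.6 CPM in the E15.5 libraries and 117, 130.4 and 211 CPM at P1. It was 289, 169 and 139 CPM at P7 and 264, 216 and 197 CPM at P14, against 51.8, 45.0 and 48.1 CPM in MB. Every library of P1, P7 and P14 lay above every library of E15.5 and MB, and the latter overlapped. Gria1 rose by 1.65 ± 0.27 (log2, SE) from E15.5 to P1 (edgeR adjusted p = 0.000174, n = 3 against 3), and was lower in MB than at P14 by a log2 change of -2.23 ± 0.27 (edgeR adjusted p = 9.68e-06) and than at P7 by -2.04 ± 0.27 (edgeR adjusted p = 3.33e-05). MB and E15.5 differed by -0.01 ± 0.26 on the log2 scale (edgeR adjusted p = 0.976). The summed astroglia markers moved the same way as Gria1 from E15.5 to P1 and from P14 to MB. Not every marker on the list fell from P14 to MB. S100b was at 77.6 to 112 CPM at P14 and higher, at 124 to 206 CPM, in MB. Gfap overlapped, at 248 to 310 CPM at P14 and 158 to 391 CPM in MB, and the others on the list were lower in MB. Between E15.5 and MB the summed ranges did not overlap, whereas those of Gria1 did. Of the single markers, Aldh1l1, Fabp7 and Gdf10 overlapped between E15.5 and MB, and the others on the list did not. The part of these markers in the Gria1 differences was not tested.

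Gria4 (ENSMUSG00000025892, chr9:4417899-4796234 in mm9, minus strand), which encodes an AMPA subunit of both granule neurons and Bergmann glia, followed a similar course with a higher level in MB. The E15.5 libraries had 68.5, 71.8 and 48.3 CPM, those of P1 187, 169.8 and 328 CPM and those of P7 283, 263 and 212 CPM. The P14 libraries had 421, 377 and 341 CPM and the MB libraries 108, 155 and 166 CPM. The order of the means was P14, P7, P1, MB and E15.5, and MB overlapped no other group. Gria4 rose by 1.86 ± 0.26 (log2, SE) from E15.5 to P1 (edgeR adjusted p = 5.12e-05) and by 2.60 ± 0.27 from E15.5 to P14 (edgeR adjusted p = 2.17e-06). In MB it was lower than at P14 by -1.41 ± 0.25 (edgeR adjusted p = 0.000322) and higher than at E15.5 by 1.19 ± 0.25 (edgeR adjusted p = 0.00119). The lower level than at P7, -0.82 ± 0.25 (edgeR adjusted p = 0.0198), was no longer called without P7 replicate 1 (adjusted p = 0.0854) or without MB replicate 1 (adjusted p = 0.0670).

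Gria2 (ENSMUSG00000033981, chr3:80488858-80606713 in mm9, minus strand), the subunit that keeps calcium out once edited, varied less between the groups. Its level was 307, 349 and 161 CPM at E15.5, 542, 469 and 573 CPM at P1, 491, 526 and 604 CPM at P7 and 527, 423 and 467 CPM at P14. In MB it was 385, 388 and 303 CPM. The 9 postnatal libraries all lay above the MB and E15.5 libraries, which overlapped. Gria2 was higher at P1 than at E15.5 by 0.96 ± 0.24 (log2, SE; edgeR adjusted p = 0.00435). The differences of MB from P7 (-0.59 ± 0.24, edgeR adjusted p = 0.0666), from P14 (-0.40 ± 0.24, adjusted p = 0.176) and from E15.5 (0.40 ± 0.24, adjusted p = 0.173) did not pass the test. The rise from E15.5 to P1 was 0.60 (adjusted p = 0.175) and that to P14 0.44 (adjusted p = 0.298) within the 9 libraries whose gene and transcript counts were related in 1 way, among which E15.5 replicate 2 was the only E15.5 library.

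Gria3 (ENSMUSG00000001986, chrX:38754481-39031778 in mm9, plus strand) was the AMPA subunit whose mean was highest in MB. It had 24.7, 33.5 and 19.8 CPM at E15.5, 44.5, 34.6 and 37.6 CPM at P1, 50.6, 51.0 and 53.6 CPM at P7 and 34.7, 25.6 and 32.2 CPM at P14. The MB libraries had 43.4, 49.7 and 83.9 CPM, so that MB replicate 3 was high and the other pair lay near P7. Gria3 was higher in MB than at P14 by 0.94 ± 0.25 (log2, SE; edgeR adjusted p = 0.00530) and than at E15.5 by 1.19 ± 0.25 (edgeR adjusted p = 0.00101), while MB and P7 differed by 0.19 ± 0.24 (edgeR adjusted p = 0.594). Among the ages it was higher at P7 than at E15.5 by 1.00 ± 0.25 (edgeR adjusted p = 0.00554), and its lower level at P14 than at P7 (-0.75 ± 0.25, adjusted p = 0.0647) did not pass.

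Grik3 (ENSMUSG00000001985, chr4:125167944-125391417 in mm9, plus strand), which encodes a kainate subunit of low affinity that forms channels on its own, had the widest range over the groups among the kainate subunits. It was at 251, 295 and 101 CPM at E15.5, at 118, 80.1 and 58.2 CPM at P1 and at 53.2, 55.7 and 70.1 CPM at P7. It was at 38.6, 28.4 and 30.7 CPM at P14 and at 6.31, 10.5 and 19.7 CPM in MB. The means stood in the order E15.5, P1, P7, P14 and MB. The summed level of 6 markers of unipolar brush cells and nuclear neurons, other glutamatergic neurons of the cerebellum, had medians in the same order, with P7 overlapping both P1 and P14. It was 219 to 450 CPM at E15.5, 85.8 to 126 CPM at P1, 69.1 to 89.2 CPM at P7, 65.4 to 76.6 CPM at P14 and 4.42 to 6.19 CPM in MB, where Lmx1a, Lhx9 and Meis2 were each under 1 CPM; the part of these markers in the Grik3 differences was not tested. For Grik3 itself, E15.5 overlapped P1 through its replicate 3, P1 overlapped P7, and the libraries of P7, P14 and MB did not overlap each other. From E15.5 to P14 Grik3 fell by 2.73 on the log2 scale (SE 0.42, edgeR adjusted p = 9.09e-05), and in MB it was lower than at P14 by -1.42 ± 0.41 (edgeR adjusted p = 0.00904) and than at P7 by -2.30 ± 0.42 (edgeR adjusted p = 0.000542). The step from E15.5 to P1 (-1.33 ± 0.40, edgeR adjusted p = 0.0136) lost its call without E15.5 replicate 2 (adjusted p = 0.0605) or P1 replicate 3 (adjusted p = 0.0597). That from P1 to P14 (-1.39 ± 0.40, edgeR adjusted p = 0.0444) lost it without any 1 of the other 5 libraries, with adjusted p from 0.0941 to 0.224.

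Grik1 (ENSMUSG00000022935, chr16:87912666-88289947 in mm9, minus strand), another low-affinity kainate subunit, fell alongside Grik3. It had 16.7, 21.2 and 21.7 CPM at E15.5, 7.42, 11.7 and 7.57 CPM at P1, 12.5, 13 and 10.4 CPM at P7, 4.82, 5.36 and 5.85 CPM at P14 and 1.39, 2.15 and 2.16 CPM in MB. P1 and P7 overlapped, and all other neighbours in the order E15.5, P7, P1, P14 and MB did not. Of 8 markers of GABAergic interneurons, Gad2, Slc32a1, Slc6a5, Pax2 and Lhx5 were under 1 CPM in all 3 MB libraries. The summed level of the list was 687 to 809 CPM at E15.5, 310.4 to 427 CPM at P14 and 350 to 423 CPM in MB. Lhx1 alone on the list had a higher mean in MB than at P14. It was at 85.3 to 102 CPM at E15.5, 163 to 226 CPM at P14 and 318 to 372 CPM in MB, the larger part of the MB sum. The part of these markers, and of those given for Grik3, in the Grik1 differences was not tested. The fall from E15.5 to P1 was -1.16 ± 0.25 (log2, SE; edgeR adjusted p = 0.00145). MB was lower than P14 by -1.49 ± 0.26 (edgeR adjusted p = 0.000213) and than P7 by -2.65 ± 0.26 (edgeR adjusted p = 2.19e-06). The fall from P7 to P14 (-1.17 ± 0.25, edgeR adjusted p = 0.0130) was not called without P7 replicate 2 (adjusted p = 0.0652), P14 replicate 1 (adjusted p = 0.0595) or P14 replicate 2 (adjusted p = 0.0693).

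Grik2 (ENSMUSG00000056073, chr10:48819649-49508560 in mm9, minus strand), the third low-affinity subunit, had a higher mean at each postnatal age than at E15.5. It was at 167, 179 and 99.2 CPM at E15.5, 192, 159 and 255 CPM at P1, 233, 273 and 276 CPM at P7, 269, 222 and 247 CPM at P14 and 104, 131 and 141 CPM in MB. MB overlapped E15.5 and lay below every postnatal library. Grik2 was lower in MB than at P7 by -1.05 ± 0.23 (log2, SE; edgeR adjusted p = 0.00205) and than at P14 by -0.97 ± 0.23 (edgeR adjusted p = 0.00234). Its rise from E15.5 to P14 (0.73 ± 0.23, edgeR adjusted p = 0.0142) was lost without E15.5 replicate 3, its lowest E15.5 library (0.44, adjusted p = 0.0874), without P14 replicate 1 (adjusted p = 0.0515) and within the 9 libraries named above (adjusted p = 0.252).

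The high-affinity subunits Grik4 (ENSMUSG00000032017, chr9:42328517-42616733 in mm9, minus strand) and Grik5 (ENSMUSG00000003378, chr7:25794872-25857388 in mm9, minus strand) varied least. Grik4 had 13.2, 13.4 and 17.1 CPM at E15.5, 11.3 CPM in each P1 library, 12.2, 9.91 and 12.4 CPM at P7, 11.3, 9.43 and 11.1 CPM at P14 and 10.2, 8.35 and 9.05 CPM in MB. Its only call was MB against E15.5, lower by -0.66 ± 0.19 (log2, SE; edgeR adjusted p = 0.0103). Grik5 had 199.8, 166 and 140.0 CPM at E15.5, 112, 95.3 and 135 CPM at P1, 155, 98.3 and 180.0 CPM at P7, 175, 150.2 and 182 CPM at P14 and 77.4, 136 and 162 CPM in MB. It passed none of the reported tests. Its P1 libraries lay below those of E15.5 (-0.56 ± 0.27, edgeR adjusted p = 0.0952) and its MB libraries overlapped every other group.

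To compare subunits with each other, levels were divided by the longest exonic length of each gene's transcripts (RPKM), and each subunit was given as a share of its family's sum. Gria2 was 59.4% ± 7.06 (SD, n = 3) of the AMPA sum at E15.5, and 50.3% ± 5.79, 46.1% ± 7.80 and 36.9% ± 2.11 at P1, P7 and P14. In MB it was 52.8% ± 7.94. Gria4 was 18.2% ± 1.43 at E15.5, 37.9% ± 1.74 at P14 and 26.7% ± 4.87 in MB. The share of Gria2 thus lay at 34.9% to 39.1% in the P14 libraries and at 44.0% or more in every E15.5 and MB library. By this length the shares of Gria2 and Gria4 overlapped at P14. Divided by coding length, their mean shares at P14 were 42.1% for Gria2 and 34.6% for Gria4. Gria1 made up 22.0% ± 1.16 at P14 and 8.92% ± 1.06 in MB, and Gria3 3.22% ± 0.388 at P14 and 11.6% ± 4.13 in MB. No test was made on the shares, which sum to the whole within a family and so cannot vary independently.

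Among the kainate subunits, Grik2 and Grik5 held the larger shares at every age and in MB by this length. The share of Grik2 went from 32.2% ± 2.42 at E15.5 to 54.6% ± 1.38 at P14, while Grik3 went from 19.6% ± 5.89 to 3.11% ± 0.316 and to 1.85% ± 0.653 in MB. The share of Grik3 depends on its long untranslated sequence: divided by coding length it was 36.4% at E15.5, 6.94% at P14 and 4.24% in MB. Grik5 was 38.0% ± 5.18 at E15.5, 37.9% ± 1.50 at P14 and 45.9% ± 5.68 in MB. The summed RPKM of the AMPA subunits was 0.546 ± 0.0308 times that of the kainate subunits at E15.5 (SD, n = 3). The ratio was 1.56 ± 0.104, 1.44 ± 0.207 and 1.59 ± 0.137 at P1, P7 and P14, and 1.46 ± 0.329 in MB. The E15.5 libraries, at 0.523 to 0.581, lay apart from all others, of which the lowest was 1.17, and the other 4 groups overlapped. Divided by coding length, a setting added after the values were seen, the ratio was 0.729 at E15.5, 2.23, 2.14 and 2.40 at P1, P7 and P14, and 2.34 in MB. The E15.5 libraries again lay apart, at 0.703 to 0.745 against 1.83 or more in the others. The bars of subunit shares show each library.

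**Figure D3:**
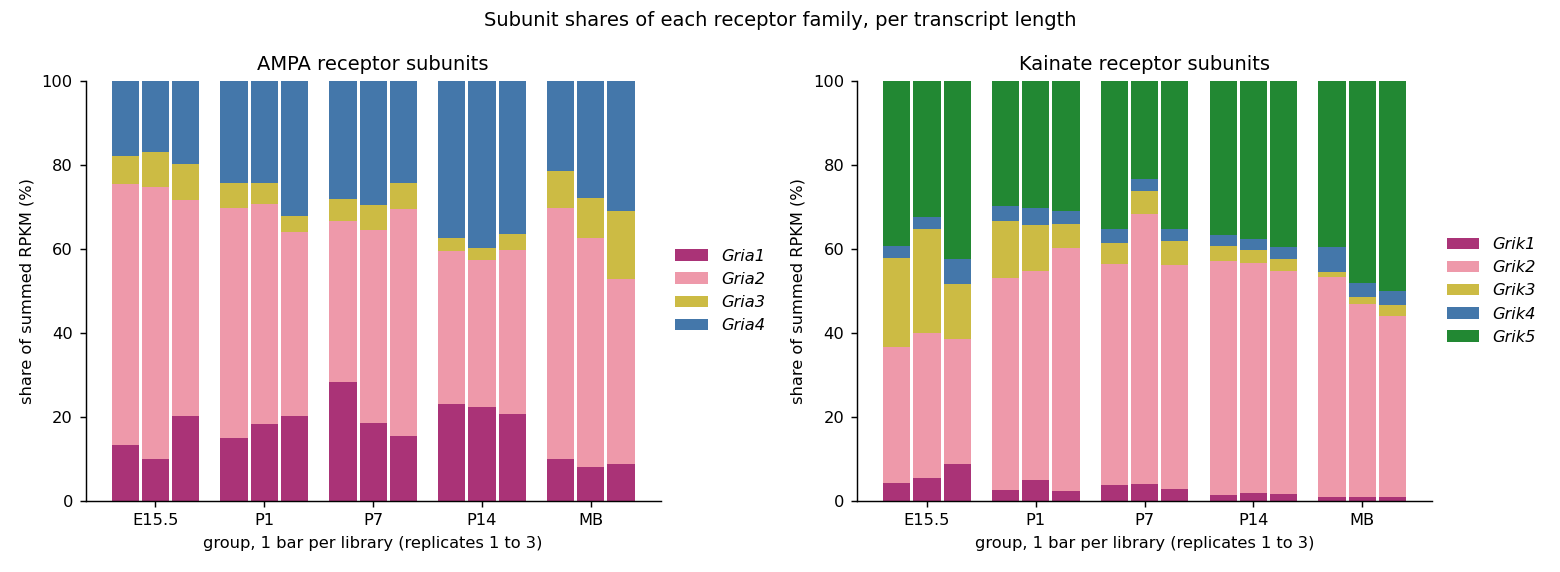
Share of each subunit in the summed RPKM of its family (percent, stacked to the whole), with 1 bar per library and 3 bars per group; the AMPA family is on the left and the kainate family on the right. The Gria4 share is largest in the P14 bars (36.5% to 39.9%) and the Grik3 share is largest in the E15.5 bars (13.1% to 24.6%).

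AMPA subunits are also made in 2 forms that differ by a pair of mutually exclusive exons, known as flip and flop, in the part that binds glutamate. For Gria4 the deposited transcript table listed 1 transcript with each exon. Both exons are 115 bases long, in the same positions in mm9 and GRCm38 on the minus strand of chromosome 9, and they are printed with the 31 bases that differ between them in capitals because the counts below turn on them.
Upstream exon (chr9:4432773-4432887): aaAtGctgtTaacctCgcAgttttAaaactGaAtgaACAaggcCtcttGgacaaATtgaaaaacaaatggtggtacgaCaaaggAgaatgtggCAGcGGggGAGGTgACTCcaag
Downstream exon (chr9:4427030-4427144): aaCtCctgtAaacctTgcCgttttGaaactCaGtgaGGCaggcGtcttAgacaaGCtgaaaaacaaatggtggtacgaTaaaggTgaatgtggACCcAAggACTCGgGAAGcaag
How reads over exons shared by both transcripts, or over a shared and an exclusive exon, were counted is not given in the sources used here. The count with the downstream exon minus that with the upstream exon was -5, -10 and 0 at E15.5, 7, 21 and 29 at P1, -17, -65 and 10 at P7, 47, 60 and 13 at P14 and -15, 34 and -4 in MB. It was above 0 in all P1 and P14 libraries and took both signs in P7 and MB, against transcript counts of 10344 to 12750 in the P14 libraries. These net differences were not tested, and they do not give the share of either form.

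The receptors reach the synapse with auxiliary subunits, and genes for those of AMPA receptors were called in both directions. Of 12 tested, 1 was higher and 4 were lower in P1 against E15.5, beside 25.4% higher and 20.9% lower over all genes. In P14 against P1, 1 was higher and 2 were lower, beside 3.63% and 5.31%. In MB against P14, 3 were higher and 3 lower, beside 22.9% and 27.2%, so that the share called was that of all genes. Gsg1l, which encodes an auxiliary subunit that slows recovery of the receptor, had a mean of 567 CPM in MB (range 467 to 632) against 42.1 CPM at P14 (range 38.7 to 48.3) and was higher by 3.75 ± 0.34 (log2, SE; edgeR adjusted p = 5.80e-07). The cornichon Cnih3 (2.94 ± 0.35, edgeR adjusted p = 7.49e-06) and the TARP Cacng3 (4.98 ± 0.73, edgeR adjusted p = 5.24e-05) were also higher in MB than at P14, Cacng3 from a P14 mean of 0.427 CPM. Shisa6, Shisa9 and Cnih2 were lower, by -2.88, -1.97 and -1.18. From P1 to P14, Cacng7 rose by 1.04 ± 0.25 (edgeR adjusted p = 0.0209) while Gsg1l and Cacng3 fell by 1.69 and 2.65. When a P1 or P14 library other than P1 replicate 3 was left out, Cacng7 and Cacng3 were no longer called, and Gsg1l was not called without P14 replicate 2. Cacng2, which encodes stargazin, the TARP that brings AMPA receptors to the surface of granule neurons, had means of 76.4, 133, 246 and 167 CPM at E15.5, P1, P7 and P14, and of 260.4 CPM in MB. It was higher than at E15.5 both at P14 (1.13 ± 0.40, edgeR adjusted p = 0.0273) and in MB (1.77 ± 0.41, edgeR adjusted p = 0.00201). Neither its difference between P14 and P1 (0.33 ± 0.39, edgeR adjusted p = 0.632) nor that between MB and P14 (0.64 ± 0.40, edgeR adjusted p = 0.194) passed the test.

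The kainate receptor auxiliary subunits are encoded by Neto1 and Neto2. Neto1 had means of 12.2, 7.79, 5.88 and 3.71 CPM at E15.5, P1, P7 and P14, and of 2.47 CPM in MB. It was lower at P14 than at E15.5 by -1.71 ± 0.27 (log2, SE; edgeR adjusted p = 0.000104) and in MB than at P7 by -1.24 ± 0.27 (edgeR adjusted p = 0.00209), whereas its fall from P1 to P14 (-1.07 ± 0.27, edgeR adjusted p = 0.0258) was called without P1 replicate 3 but not without any other 1 library of that pair of groups. Neto2, at 169, 147, 155, 115 and 102 CPM in the same order, was called lower in MB only against E15.5. Of the genes for AMPA receptor assembly and trafficking, 18 were tested. In P14 against P1, 4 were higher and 0 lower, beside 3.63% and 5.31% of all genes, the former including Porcn (1.25 ± 0.27, edgeR adjusted p = 0.0154), Abhd12 (0.80) and Nsf (0.71), whose product binds the Gria2 product and acts in its recycling. Without P1 replicate 3, 7 were higher and 1 was lower, whereas without P14 replicate 1 only Porcn was called, and without any other 1 library of these groups none was. The genes called higher over all genes tested went from 554 to between 2 and 46 without any 1 of those 5 libraries. In MB against P14, 1 was higher and 9 were lower, where 22.9% of all genes were higher and 27.2% lower. Grip2 (-4.79 ± 0.32, edgeR adjusted p = 4.84e-08), a scaffold that binds Gria2 and Gria3 products, Dlg2 (-4.27) and Nptxr (-3.42) had the largest falls, and the scaffold Grip1 was higher (1.22 ± 0.20, edgeR adjusted p = 0.000140).

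Adarb1, which encodes the enzyme of Q/R site editing, was the editing gene called in MB against P7 and P14. Its means were 129, 102, 133 and 161 CPM at E15.5, P1, P7 and P14. The MB mean was 30.7 CPM, with a range of 27.5 to 35.5 that lay below every other library. It was lower in MB than at P14 by -2.39 ± 0.24 (log2, SE; edgeR adjusted p = 1.93e-06) and than at P7 by -2.12 ± 0.24 (edgeR adjusted p = 8.40e-06). The other editing genes, Adar and Adarb2, were not called in either comparison. Adar had means of 125 CPM in MB, 117 at P7 and 115 at P14. Adarb2 had means of 12.3 CPM in MB (range 2.54 to 27.7), 32.6 at P7 (range 27.5 to 37.8) and 12.7 at P14. Of 8 glutamate transporters, 4 were lower in MB than at P14 and 0 were higher, beside 27.2% lower and 22.9% higher over all genes. Slc17a7, the vesicular transporter of mature granule neurons, had means of 16.4, 65.7, 77.7 and 245 CPM at E15.5, P1, P7 and P14, and of 1.05 CPM in MB. Its P1 libraries ranged from 20.9 to 144 CPM, P1 replicate 3 being the highest. It was lower in MB than at P14 by -7.86 ± 0.68 (edgeR adjusted p = 3.95e-07), and its rise from P1 to P14 (1.90 ± 0.50, edgeR adjusted p = 0.0324) was not called without any 1 library other than P1 replicate 3. Levels of 6 of these related genes are drawn in the panels of auxiliary, editing and transporter genes.

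**Figure D4:**
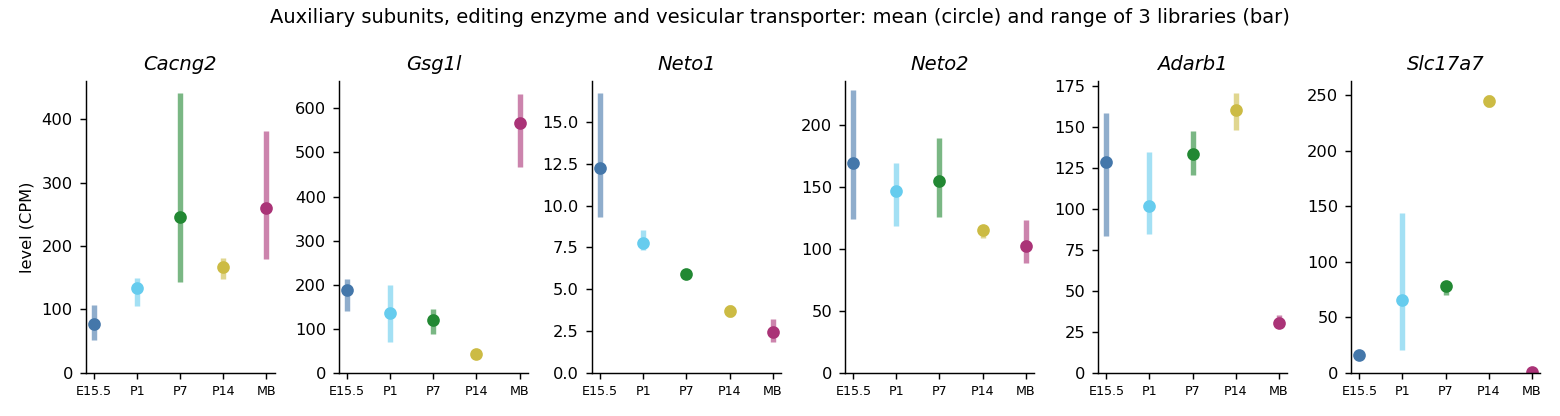
Level in CPM (linear axes from 0, scaled separately for each gene) of the auxiliary subunits Cacng2, Gsg1l, Neto1 and Neto2, the editing enzyme Adarb1 and the vesicular transporter Slc17a7; circles are means and vertical bars span the 3 libraries of a group. Adarb1 and Slc17a7 have their lowest mean in MB (30.7 and 1.05 CPM) and Gsg1l its highest (567 CPM).

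For each subunit, the genes most alike in pattern were found by Pearson's correlation of log2 CPM over the 15 libraries, among 11576 other genes whose mean reached 5 CPM. Since the libraries fall into 5 groups, these values describe mainly the group means and carry no test. Grik2 was most like Kcnj6 (r = 0.97, a potassium channel gene) and Gprin3 (r = 0.96). Gria1 was most like Pla2g3 (r = 0.97) and Eepd1 (r = 0.97), and Gria4 like Paqr6 (r = 0.97) and Prex1 (r = 0.96). Grik1 was most like Masp1 (r = 0.97) and Fam167a (r = 0.96), and Grik3 like Sorcs1 (r = 0.97) and Fam84a (r = 0.96). The patterns nearest to Gria2 were those of Minar1 and Ago3 (r = 0.93 for both), those nearest to Gria3 were of Ndst1 and E2f2 (r = 0.91 for both), and those nearest to Grik5 were of Sarm1 (r = 0.95) and Clstn1 (r = 0.93). For Grik4 they were Vps8 (r = 0.93) and Pde1b (r = 0.90). Within the receptor genes, Grik1 and Grik3 correlated with r = 0.91, and Gria1 and Gria4 with r = 0.87, over the same 15 libraries. The patterns did not divide by family. Grik2 correlated with Gria1 (r = 0.82), Gria2 (r = 0.78) and Gria4 (r = 0.77), though not with Gria3 (r = 0.14). Gria1 and Gria3, of the same family, correlated with r = -0.01.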

How the data were processed

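Raw read counts were used as deposited. Per the submitters' processing notes, the authors used Trimmomatic, TopHat, StringTie and HTSeq with the mm9 build, with no versions or roles given; the strand setting is not given in the sources used here. The gene table gave the counts tested, and a table of 28246 transcripts gave positions and lengths. Lines for reads in no gene (14.1% to 29.2% of a library's records), in several genes (0.520% to 0.749%) or with several alignments (22.9% to 44.6%) were left out. The ratio of gene to transcript counts split the libraries into sets of 6 and 9 for some genes, such as Tsnax (at most 0.273% against at least 92.4%), but not for the subunits.

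Counts were tested with edgeR 4.0.16 in R 4.3.3 (filterByExpr with minimum count 10 and minimum total count 15, TMM, quasi-likelihood fit with 1 mean per group over 15 libraries, 10 residual degrees of freedom, Benjamini-Hochberg adjusted p under 0.05 over 15259 genes). SE is the log2 change divided by the square root of F. The script was tested on simulated data. Alternatives were DESeq2 1.42.0, its size factors in edgeR, no filter, a replicate block, only the groups compared, the transcript table, 1 counting set, other lengths for shares and leaving out each library. The median of all genes moved by less than 0.1 between scalings.

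The Q/R codon was located by translating GENCODE transcripts and taking the first of the paired glutamine codons of the pore loop, which had to be CAG in Gria2, Grik1 and Grik2. All subunits were named. Of the related lists (auxiliary subunits, trafficking, editing, transporters), genes called in P14 against P1 or MB against P14 were named, at most 3 per direction and list, besides Neto1, Neto2, Cacng2, Adarb1 and Slc17a7. A list of 8 metabotropic glutamate receptors, 7 of them tested, was examined as well and its genes are not named. In MB against P14, 7 were lower and 0 higher, beside 27.2% and 22.9% of all genes. In P14 against P1, 0 were higher and 1 was lower, beside 3.63% and 5.31%. The members and lists were chosen with earlier results of these data known.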

Additional observations from a re-analysis of the deposited data

How the results depend on the processing

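Over the tests of single subunits under the alternatives, 781 kept their side of the threshold, 16 passed it where the reported test did not and 18 no longer passed it. A change of direction was counted only where the reported or the alternative test passed, and 0 were found. Changes of direction between tests that did not pass were not counted. The number of subunits called in P14 against P7 was 1 as reported, 4 with only the groups compared, 2 with DESeq2 and 0 to 1 when 1 library was left out. In P14 against P1 it was 1 as reported, 0 with a replicate block, 3 with only the groups compared, 3 within 1 counting set, 3 with DESeq2 and 0 to 4 when 1 library was left out. Leaving out 1 library of the groups compared gave 4 to 5 calls in P1 against E15.5, 4 to 5 in MB against P7, 6 in MB against P14 and 6 to 7 over the 4 ages. The cause of these changes was not tested. The replicate numbers gave no clear sign of pairing. Over 30 pairs with the same number, deviations from the group means correlated at -0.31 to 0.33, with 7 above 0.1. Pairs with different numbers spanned -0.48 to 0.47. With 3 libraries a group, these values cannot show that the samples were unpaired. Over all genes, P14 against P1 called 1364 genes as reported, 4089 with only the groups compared, 2394 with DESeq2 and 154 to 2714 when 1 library of these groups was left out. P14 against P7 called 1574, 3838, 2436 and 125 to 1077, and P7 against P1 called 480, 203, 1209 and 9 to 888 in the same order. Without MB replicate 1, which is in none of these comparisons but shares the estimate of the spread, they called 2804, 2837 and 1293. P1 against E15.5 called 4527 within 1 counting set against 7061. The order of a subunit's group means changed only for Grik5, whose E15.5 and P14 means exchanged places with DESeq2 size factors. The TSS model table matched only Gria3 and Grik3, so no count of 9 was made from it, and no comparison within 1 counting set was possible for P7 against P1 or P14 against P7. With 3 libraries a group, the reported differences of Grik5, and those of Gria2 in MB, did not pass the adjusted threshold. That does not show that the levels were equal. With only the groups compared, Grik5 did pass in P14 against P1 (log2 change 0.56, edgeR adjusted p = 0.0357). Within 1 counting set, where MB replicate 1 was the only MB library, the Grik5 log2 change in MB against P7 was -0.90, beside -0.21 as reported.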
